A study of Mus musculus with 20 samples.

Results

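Transcripts of hepatoma cells were compared at time point 4 of a study on glutamine supply. The data are the 2 arrays titled Timepoint4 and Timepoint4r, chosen by these titles from 20 arrays of 11 numbered time points. Hepa1-6, an established mouse hepatoma line, was grown to confluence in flasks of DMEM with 25 mM glucose and 10% CPSR-3, a serum replacement. Control flasks were kept at 4 mM glutamine for 96 h, and varied flasks were switched between 0 and 4 mM when medium was renewed at the start and after 24, 48 and 72 h. RNA of the varied flasks was taken as labelled with Cy5 and RNA of the control flasks with Cy3, and both were hybridised together to spotted DNA arrays. The comparison asks which transcripts differ between a varied and a control flask at this time point.

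The labels give neither the hour of time point 4, nor the glutamine level in the varied flask when it was sampled, nor whether the second array was a repeat hybridisation or came from other flasks. The p-values below rest on the spread between arrays of the same time point, pooled over 7 time points and drawn towards that of other genes. They do not measure how closely the 2 arrays of time point 4 agree on a gene, and the spread may therefore be technical. Channel 2 of the first array is labelled as cells without glutamine, whereas on the second array it is labelled as cells with glutamine. Each value was taken as a log2 ratio (base 2 is an assumption) of the varied over the constant flask, which is the likely direction, relative to the median probe of its array. No array was treated as having swapped dyes, and whether the differing label marks a swap was not tested. Without a swap, a gene that takes up 1 dye better than the other cannot be told apart from a gene that differs steadily between flasks. In RNA of whole flasks, fewer cells of a type and less RNA per cell cannot be told apart either.

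Glutamine feeds carbon into the tricarboxylic acid cycle and donates nitrogen for nucleotides and amino acids. When an amino acid runs short, the kinase GCN2 phosphorylates the initiation factor eIF2 and translation of the transcription factor ATF4 increases. Known ATF4 targets include asparagine synthetase (Asns), the transcription factor Ddit3 (CHOP), the stress protein Sesn2 and several amino acid transporters. Unfolded proteins in the endoplasmic reticulum engage a related programme, in which chaperones such as BiP (Hspa5) are induced through ATF6 and XBP1.

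The first array gave 5682 values and the second 5555, which is 32.9% and 32.1% of 17280 probes. Of these, 4733 genes or unnamed probes had a value on both arrays, 4190 of them with a gene symbol. Across these genes the arrays correlated with r = 0.66, against 0.52 to 0.69 at the 6 other time points with a usable pair, and 72.2% of genes had the same sign on both. Genes within an array are not independent replicates, so r is given as a description. The first array correlated more closely with the first array of time point 3 (r = 0.70, over shared genes) than with its partner. The second had slightly higher correlations with an array of time point 1 (0.69) and one of time point 2 (0.68). The spread of values was 0.35 on the first array and 0.40 on the second (SD over probes), within the range of 0.26 to 0.45 on the 12 other arrays of the fit.

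At time point 4, 599 of 4305 tested genes were higher in the varied flask (13.9%) and 437 were lower (10.2%), at an adjusted p under 0.05 with limma and Benjamini-Hochberg adjustment, which is what "called" means below. Together these are 24.1% of the genes tested, and 1029 of the 1036 had the same sign on both arrays. The lower genes moved farther. The median called gene stood at 0.45 among the higher and at -0.51 among the lower, 33 called genes had a mean of -1 or less, and 0 had a mean of 1 or more. On both arrays at once, 25 genes lay at -1 or below and 0 at 1 or above. Among the 2431 genes with a value on all 14 arrays of the fit, these counts were 6 and 0. The median over all genes tested was 0.0675. The counts rest on the second array: without it 43 genes were higher and 141 lower, and without the first array 306 and 247 were. Without centring, which shifts the median of all genes to 0.49, the split became 3053 higher and 79 lower, so that higher and lower mean relative to the median probe throughout.

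**Figure D1:**
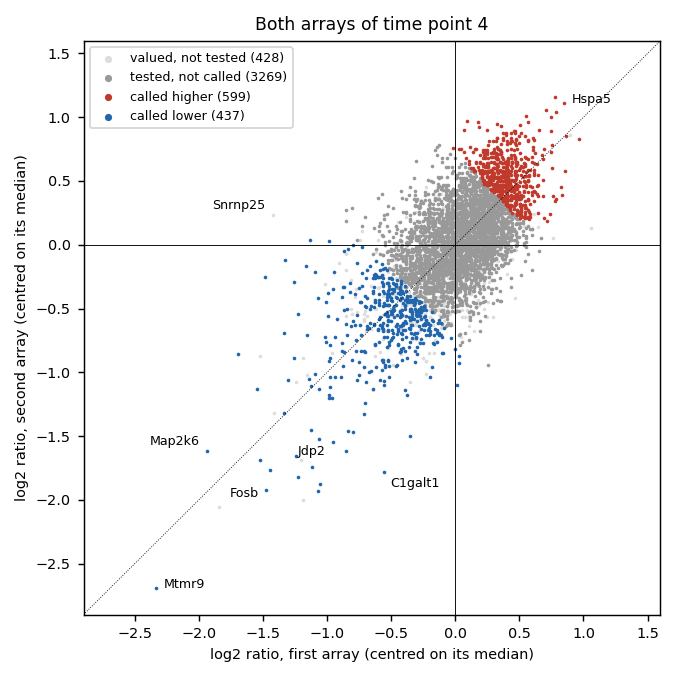
Centred log2 ratios of 4733 genes on the first (horizontal) and second (vertical) array of time point 4, with called genes in red (599 higher) and blue (437 lower), and the dotted line marking equal values. Called genes lie along the diagonal, the lower ones reach -2.34 and -2.69 for Mtmr9, and Snrnp25 (-1.43 and 0.23) is the gene on which the arrays differ most.

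The lowest transcripts included a lipid-phosphatase relative, a stress kinase, an AP-1 factor and a ubiquitin-conjugating enzyme. Mtmr9, a catalytically inactive member of the myotubularin family, stood at -2.34 on the first array and -2.69 on the second. Its mean of -2.51 ± 0.25 (SD, n = 2) corresponds to a ratio of 0.175 and had an adjusted p of 2.5e-21 with limma. Both values lay below the 11 values of the other time points in the fit, which ran from -2.29 to -0.28. Map2k6, the kinase that activates p38, measured -1.94 and -1.62, a mean of -1.78 ± 0.22 (SD, n = 2) and a ratio of 0.292. Both of its values were also below all 12 other arrays, whose lowest value was -1.58.

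Fosb, a subunit of the AP-1 transcription factor, was at -1.48 and -1.92. Its mean was -1.70, against a range of -1.71 to -0.29 on 9 other arrays, so its lower array alone was beyond them. Ube2d1, a ubiquitin-conjugating enzyme, measured -1.07 and -1.93, and the orphan receptor Gpr153 measured -1.11 and -1.74. Mcts1, a translation re-initiation factor, was at -1.45 and -1.77, and its near-identical copy Mcts2 at -1.54 and -1.13. Because these copies can cross-hybridise, their values are uncertain as separate measurements. Fam162a, a mitochondrial protein induced by hypoxia, was at -1.06 and -1.52. Spats2, Ssbp2, a single-stranded DNA-binding protein, Acrbp, a sperm acrosome protein, and Ccdc125 complete the 12, with means of -1.52, -1.47, -1.33 and -1.29.

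Of these 12 genes, 8 were below 0 on each other array of the fit that measured them. The 12 came from 8 of 32 stretches of consecutive probe numbers. Such stretches accounted for 6.41% of the variance on the first array and 14.26% on the second. Against the mean of the 6 other time points, 8 of the 9 that could be tested were called lower. The differences of Spats2, Ssbp2, Gpr153, Mcts2 and Acrbp ran from -0.73 to -0.59, that of Ccdc125 was -0.49 and not called, and Fosb, Mcts1 and Fam162a lacked the values for this test.

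**Figure D2:**
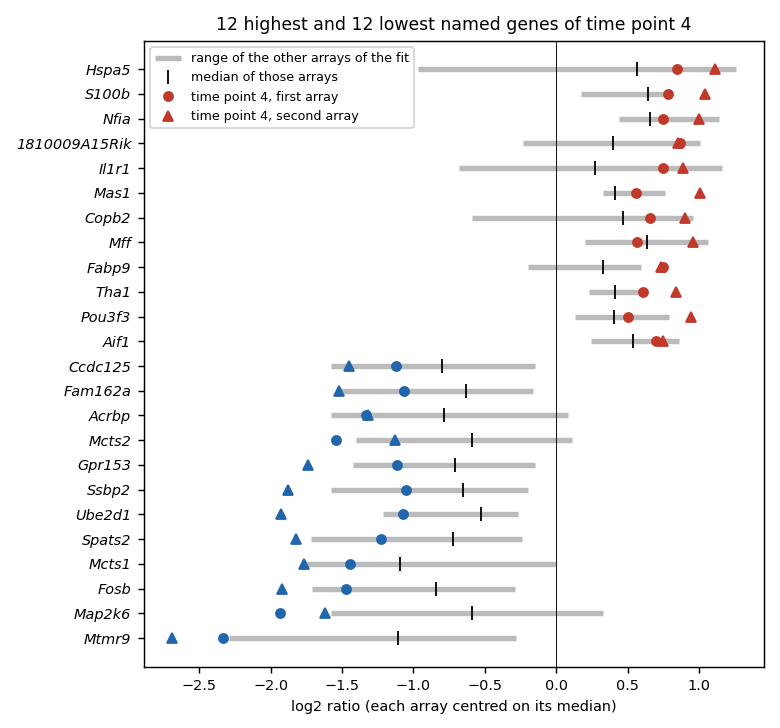
Log2 ratios of the 12 highest and 12 lowest named genes at time point 4 (circles, first array; triangles, second array) over the range (grey bar) and median (tick) of the other arrays of the fit. Mtmr9 and Map2k6 lie below the grey bar on both arrays, and most of the highest genes overlap it, Hspa5 for example (0.85 and 1.11 against -0.97 to 1.26).

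The 12 highest transcripts were closer to 0 and more mixed in function. Hspa5, which encodes BiP, the main chaperone of the endoplasmic reticulum, measured 0.85 and 1.11. Its mean of 0.98 ± 0.19 (SD, n = 2) corresponds to a ratio of 1.97 and had an adjusted p of 8.9e-06 with limma. S100b, a calcium-binding protein, was at 0.79 and 1.04, above the highest of 12 other arrays (0.80) on the second array only. Nfia, a transcription factor of the nuclear factor I family, was at 0.75 and 1.00. Il1r1, the receptor for interleukin-1, measured 0.75 and 0.89. Copb2, a subunit of the COPI vesicle coat, measured 0.66 and 0.90. Fabp9, a fatty acid-binding protein of testis, was at 0.75 and 0.73, above all 11 other arrays (highest 0.59).

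The other highest genes were 1810009A15Rik, Mas1 (a G protein-coupled receptor), Mff (mitochondrial fission factor), Aif1 (a calcium-binding protein of macrophages), Pou3f3 (a POU transcription factor) and Tha1 (threonine aldolase). Their means ran from 0.72 to 0.86. Of the 12 highest genes, 7 were above 0 on each other array that measured them. The 12 came from 6 of 32 stretches of consecutive probe numbers. Hspa5, Il1r1 and 1810009A15Rik occupy the first of every 20 probe numbers. Probes at that position had a median of 2.72 on the array of time point 5 and of 1.28 on one array of time point 6, but of -0.095 and -0.01 on the 2 arrays of time point 4. Il1r1 and Hspa5 also moved together, at -0.68 and -0.48 on the first array of time point 8 and at 0.88 and 1 on the second. Whether their values are separate measurements was not tested.

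Of 7 endoplasmic reticulum chaperones and partners tested, Hspa5 was called higher and 1 was called lower, about the share over all genes (13.9% and 10.2%), and the median was 0.11. P4hb, the disulphide isomerase PDI, was the lower one, at -0.52 and -0.95 (mean -0.73, adjusted p 6.7e-05 with limma, 0.11 without the second array). The values of Pdia6, another disulphide isomerase, were 0.015 and -0.14, those of the lectin chaperone calnexin (Canx) 0.045 and 0.18, and those of Creld2, a secreted stress-induced protein, 0.065 and 0.16. None of these 3 passed the test. Sec61b, a subunit of the translocon, was at 0.34 and -0.01, and Derl1, a factor of protein disposal, at -0.44 and -0.17, neither called. Hsp90b1 (GRP94) was measured on too few arrays to be tested, at -0.38 and -0.47.

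The promoters of 4 of these genes hold the endoplasmic reticulum stress response element, searched on both strands as CCAAT and CCACG with any 9 bases between them. They are shown because the gene that was high and 3 that were not called share it. Each line gives the 200 bases before the start site (RefSeq, GRCm38.p6), 5′ to 3′ on the gene's strand, with the element in capitals. In Creld2 it is on the opposite strand.
Hspa5, chr2:34771890-34772089, plus strand: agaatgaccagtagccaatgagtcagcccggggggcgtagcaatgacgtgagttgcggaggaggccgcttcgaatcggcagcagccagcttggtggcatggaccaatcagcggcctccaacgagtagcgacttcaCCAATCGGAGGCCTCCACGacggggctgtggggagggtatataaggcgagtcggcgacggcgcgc
Pdia6, chr12:17266389-17266588, plus strand: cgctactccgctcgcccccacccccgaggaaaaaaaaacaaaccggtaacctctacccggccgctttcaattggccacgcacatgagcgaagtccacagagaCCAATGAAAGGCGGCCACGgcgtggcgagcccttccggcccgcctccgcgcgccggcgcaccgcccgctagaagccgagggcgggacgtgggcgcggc
Canx, chr11:50325674-50325873, minus strand: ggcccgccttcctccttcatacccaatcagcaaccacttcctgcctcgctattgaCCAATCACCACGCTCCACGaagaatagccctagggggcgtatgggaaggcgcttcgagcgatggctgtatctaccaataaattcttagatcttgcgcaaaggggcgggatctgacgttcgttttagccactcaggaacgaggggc
Creld2, chr15:88819446-88819645, plus strand: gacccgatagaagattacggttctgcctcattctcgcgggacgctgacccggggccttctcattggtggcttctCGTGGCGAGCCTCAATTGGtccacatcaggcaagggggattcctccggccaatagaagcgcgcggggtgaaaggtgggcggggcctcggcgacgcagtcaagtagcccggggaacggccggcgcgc

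The element begins at -65 from the start site in Hspa5, -98 in Pdia6, -145 in Canx and -126 in Creld2. In windows from 250 bases before to 50 after a start site, 39 of 32851 promoters (0.119%) hold it, and those of P4hb and Sec61b do not. A match is a description of letters only, and the reference table lists no window for Derl1. Copies that differ by a base were not searched, so the promoters may differ in how many near copies they hold. Only tested members of the list were searched, so nothing is known here of the promoter of Hsp90b1. With the same element in capitals above, Hspa5 had a mean log2 ratio of 0.98, Canx and Creld2 of 0.11 each and Pdia6 of -0.0625.

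Glycolysis was the list with most lower members: 7 of 9 tested genes were lower, 1 was higher and the list median was -0.56, beside 10.2% lower and a median of 0.0675 over all genes tested. Pfkl, the liver form of phosphofructokinase, was lowest, at -0.98 and -1.11 (mean -1.04, adjusted p 1.7e-06 with limma). Pgam1, phosphoglycerate mutase, was at -0.46 and -0.94. Tpi1, triosephosphate isomerase, was at -0.86 and -0.51. Pklr, the liver pyruvate kinase, was at -0.51 and -0.75, and the enolase Eno3 at -0.53 and -0.30. Both arrays were below 0 for each of these genes, but none lay on both arrays below the other arrays of the fit. The list was low at other time points too. Its median by array was -0.505 and -0.41 at time point 4, and -0.58 and -0.24 at time point 3. Among the other arrays of the fit it was above 0 only on the first of time point 7 (0.035). Against time point 3, 0 of the 9 genes were called.

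Gapdh, glyceraldehyde-3-phosphate dehydrogenase, and Ldha, lactate dehydrogenase, were spotted 17 times each, so their values can be read from many probes. All 16 Gapdh probes with a value on both arrays were below 0 on both, between -1.01 and -0.36 on the first array and between -0.77 and -0.17 on the second. Of 12 such Ldha probes, 11 were below 0 on both arrays, and the remaining one was at 0 on the second. Most Ldha probes sat at the last of every 20 probe numbers, so they do not check for an effect of position. The Ldha probe at another position was at -0.185 and -0.21, and all probes at the last position had a median of 0.0125. That position was lopsided all the same, Ldha probes included. At equal distances from 0, 10.4% of its probes lay below the lower cut-off and 1.65% above the upper one. The means were -0.56 for Gapdh and -0.39 for Ldha. Aldoa, aldolase, was the exception, at 0.35 and 0.41 and called higher. Pgk1, phosphoglycerate kinase, was at -0.29 on the first array and 0.30 on the second, and was not called. The 7 lower genes became 3 without the first array of time point 4, 4 without the second and 1 without centring, where the list median was -0.14. With the spread taken from all 20 arrays 1 remained past the threshold.

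**Figure D3:**
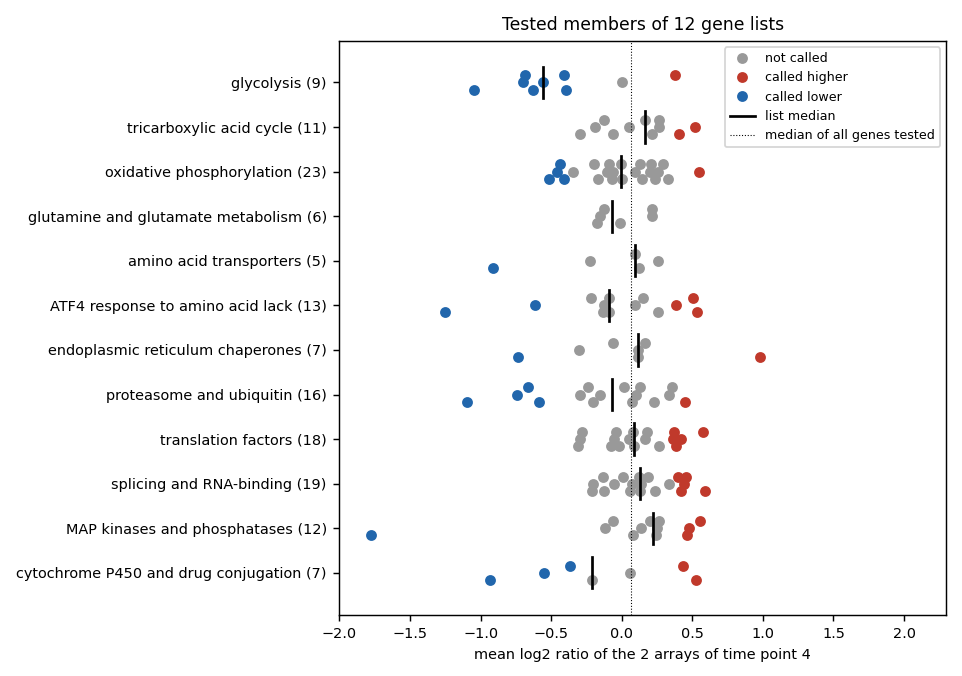
Mean log2 ratio of the tested members of 12 gene lists at time point 4 (points; red called higher, blue called lower, grey not called), with each list's median (black bar) and the median of all genes tested (dotted line, 0.0675). Glycolysis has 7 of 9 members in blue and a median of -0.56, whereas the other lists shown have medians between -0.21 and 0.22.

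The other lists of energy metabolism are given by their counts, beside 13.9% higher and 10.2% lower over all genes, and their difference from glycolysis was not tested. In the tricarboxylic acid cycle 2 of 11 genes were higher and 0 lower: Sucla2, a subunit of succinyl-CoA synthetase, at 0.58 and 0.46, and Mdh2, malate dehydrogenase, at 0.52 and 0.30. In oxidative phosphorylation 1 of 23 was higher, the complex I subunit Ndufa5 (0.48 and 0.62), and 4 were lower, among them Ndufb8 of the same complex (-0.65 and -0.38) and the cytochrome oxidase subunits Cox7b and Cox6a1. Fatty acid and triglyceride synthesis had 3 higher members of 8 and 1 lower. The desaturase Fads2 (0.59 and 0.39) and the lipases Pnpla3 and Pnpla2 were higher, and the acyltransferase Agpat2 was lower (-0.41 and -0.61). Without the second array 0 genes of the cycle and 0 of this list were higher and 1 of oxidative phosphorylation was lower. Without the first, these counts were 1, 1 and 2. Of 8 genes of fatty acid oxidation, Etfa was lower (mean -0.36), and of 5 of the gluconeogenesis and glycogen list, the glycogen synthase Gys2 was higher (0.35 and 0.65). In the hypoxia list, Fam162a and Ldha were the 2 lower members of 5, and the mean of Hif1a was -0.24, not called.

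Genes of glutamine handling itself showed 0 calls in either direction among 6 tested, beside 13.9% higher and 10.2% lower over all genes. The lists in this paragraph are too small to be told apart from those shares. Glud1, glutamate dehydrogenase, was at 0.14 and -0.17. Got1, an aspartate aminotransferase, was at 0.18 and 0.24, and Ppat, which uses glutamine in purine synthesis, at 0.075 and -0.39. The largest mean in this list was 0.21, below the smallest called size anywhere (0.35). Glul, glutamine synthetase, had no value on any of the 20 arrays. Among amino acid transporters 1 of 5 was called: Slc6a9, a glycine transporter, was lower at -0.88 and -0.95 (adjusted p 3.6e-06 with limma). The CD98 heavy chain Slc3a2 was at 0.21 and -0.03, its partner Slc7a5 at 0.22 and 0.29, and the arginine transporter Slc7a1 at 0.12 on both arrays, none called. Slc1a5 and Slc38a2, which carry glutamine, had no value at time point 4. The serine, glycine and one-carbon list had 0 calls among 5 tested.

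Of 13 ATF4 targets tested, 3 were higher and 2 were lower, which is near the 13.9% and 10.2% over all genes tested, and the median was -0.0925. Sesn2 measured 0.41 and 0.66 (mean 0.53, adjusted p 0.0030 with limma). Ddit3 measured 0.32 and 0.69 (mean 0.50, adjusted p 0.0074 with limma). Wars, tryptophanyl-tRNA synthetase, measured 0.33 and 0.44. The lower members were transcription factors. Jdp2 was at -0.95 and -1.55, and Cebpb at -0.20 and -1.04. The serine synthesis genes Phgdh (-0.075 and -0.11) and Psat1 (0.025 and -0.28) were not called. Asns had no value on any array, and Trib3 had no value on the first array of time point 4 and 0.42 on the second. Without the second array none of the 10 members that could be tested was called (Jdp2 could not be), and with the spread from all 20 arrays 0 of 13 were. The mean of Ddit3 at the 6 other time points was 0.28 and that of Sesn2 0.32, and neither differed from time point 4 beyond the threshold (adjusted p 0.71 for both with limma). The C/EBP-ATF composite element, TGATGNAAT with N any base, was searched in the promoter windows of the tested members. It was found in 0 of them, called or not, and 0.965% of 32851 promoters hold it. Wars, Slc7a5 and Nars had no window, and sites outside the windows were not searched.

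Among proteasome and ubiquitin genes, 4 of 16 tested members were lower and 1 was higher, beside 10.2% and 13.9% over all genes tested. Psmd11, a subunit of the regulatory particle, was at -0.98 and -1.21 (mean -1.09, adjusted p 6.2e-08 with limma). The core subunits Psmb2 (-0.55 and -0.94), Psma7 (-0.54 and -0.80) and Psma5 (-0.79 and -0.39) were lower too. The higher member was Ubqln1, a shuttle factor, at 0.21 and 0.68. The median of the list was -0.0725 and its members ran from -1.09 to 0.45. Without the second array 2 members were lower.

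Translation factors and splicing factors had calls on the higher side. Of 18 translation factors 5 were higher and 0 lower, beside 13.9% and 10.2% over all genes, among them the haem-regulated eIF2 kinase Eif2ak1 (0.36 and 0.79), the exchange factor subunit Eif2b1 (0.34 and 0.50) and the elongation factor Eef2 (0.44 and 0.31). Of 19 splicing and RNA-binding genes 5 were higher and 0 lower, led by Sfpq (0.58 and 0.59) and the Sm protein Snrpg (0.56 and 0.35). These counts rest on both arrays. Without the first array of time point 4, 1 translation and 2 splicing genes were higher, without the second 0 and 0, with the spread from all 20 arrays 0 and 1, and at equal spread 1 and 1. With centring within stretches of the array the translation list gave 2 higher and 2 lower, and the splicing list 6 and 1. Of 42 tested proteins of the cytosolic ribosome 4 had higher and 1 had lower transcripts, with Rpl36 (0.23 and 0.74) and Rpl39 (-0.43 and -0.52) at the ends. Mitochondrial ribosomal proteins had 3 higher and 2 lower members of 21, and Mrps12 was lowest at -0.77 and -1.06.

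Signalling genes were led by Map2k6. Of 12 MAP kinases and phosphatases tested it was the 1 lower member, while 3 were higher: the JNK kinase Mapk9 (0.78 and 0.34), the p38 isoform Mapk13 (0.28 and 0.65) and the stress-activated Map3k5 (0.46 and 0.50). These counts stand beside 10.2% lower and 13.9% higher over all genes, and 1 was higher without either array of time point 4 in turn. The immediate early genes had 2 lower members of 5, Fosb and Jun (-0.32 and -0.46), and 1 higher, Gadd45b (0.36 and 0.50). Fos was at 0.17 and 0.29 and Myc at -0.15 and 0.74, neither called. In the mTOR list Akt1 (-0.59 and -0.57) and Stk11 (LKB1; 0.025 and -0.93) were the 2 lower members of 8. Akt1 had nearly the same value on both arrays and Stk11 did not. Cell cycle genes had 2 higher (Ndc80 and Cks1b, means 0.72 and 0.54) and 2 lower (Cdk6 and Kif11, -0.55 and -0.50) of 23 tested. None of 7 apoptosis regulators was called.

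Few genes of liver function had a value on both arrays. Of 7 drug-metabolising enzymes tested 3 were lower and 2 higher, beside 10.2% and 13.9% over all genes, but 1 and 0 were without the second array or with the spread from all 20 arrays. The monooxygenase Fmo5 was at -1.16 and -0.71 and the retinal dehydrogenase Aldh1a1 at -0.53 and -0.56, while the aldehyde dehydrogenases Aldh3a2 and Aldh2 were higher (means 0.53 and 0.44). Ephx1, epoxide hydrolase, had a mean of -0.37, at an adjusted p of 0.0499 with limma. In the urea cycle and amino acid breakdown list, Fah (-0.51 and -0.60) and Tdo2 (-0.36 and -0.65) were the 2 lower of 8. Secreted plasma proteins had 1 higher (coagulation factor F9, mean 0.39) and 1 lower (Igfbp1, -0.39) of 13.

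A ratio gives no level, so the label of the cells was checked only by which markers had a value. Of 15 markers of stellate cells and fibroblasts 8 had a value on both arrays, so having one does not tell cell types apart. Of 16 hepatocyte markers 7 had one on both arrays, among them Apoa1, Fgb, Hnf4a and Cebpa, whose means lay between -0.0775 and 0.0925 and were not called. Tdo2 and the keratin Krt8 (-0.65 and -0.26) were lower. The macrophage marker Aif1 (mean 0.72), the endothelial receptor Kdr (0.45), the T-cell gene Cd3d (0.47) and the collagen Col1a2 (0.36) were called higher and the pericyte receptor Pdgfrb (-0.59) was called lower. The other 13 of 18 tested markers of macrophages, stellate cells, endothelial cells, cholangiocytes and lymphocytes were not called. Of these 18, 4 were higher and 1 was lower, beside 13.9% and 10.2% over all genes. The part of other cells in the results was not tested.

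**Figure D4:**
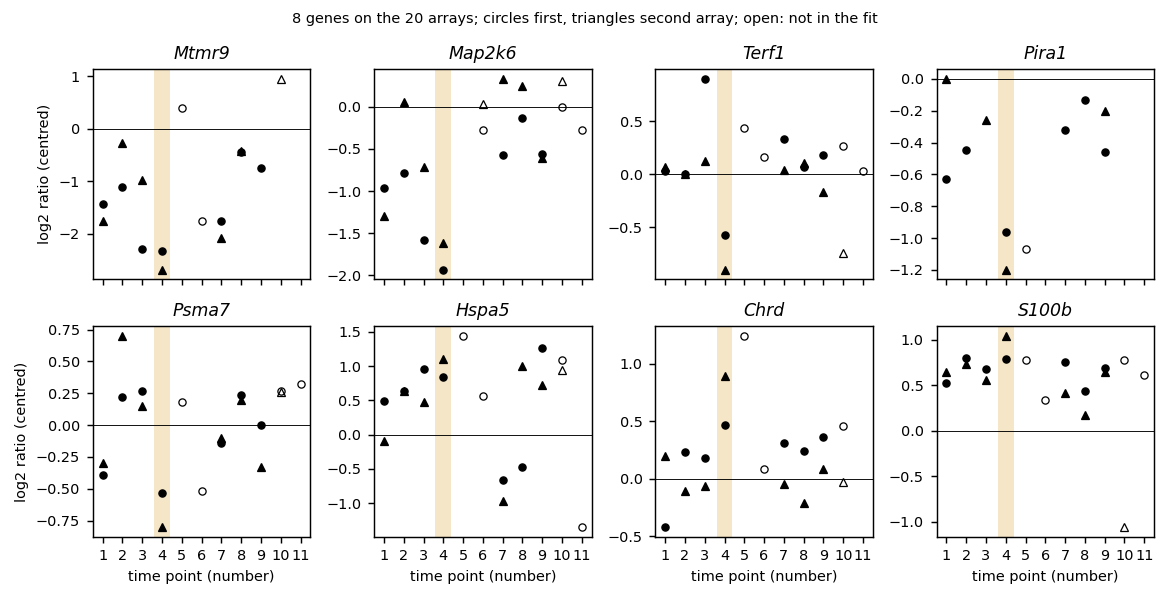
Log2 ratios of 8 genes on the 20 arrays by time point number (circles, first array; triangles, second array; filled, arrays of the fit; shaded, time point 4; open, time points 5, 6, 10 and 11). Terf1 (-0.58 and -0.90), Pira1 and Psma7 are low at time point 4 against every other array of the fit, and Hspa5 is below 0 on both arrays of time point 7.

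Differences between time points are free of a constant dye preference if no array had swapped dyes. In this comparison 52 of 3788 genes (1.37%) differed between time point 4 and the mean of time points 1, 2, 3, 7, 8 and 9. Of these 37 were lower at time point 4 (0.977%) and 15 were higher (0.396%), with limma and Benjamini-Hochberg adjustment. As a description of genes chosen by this contrast, 20 of the 37 lower genes were below every other array of the fit on both arrays, and 2 of the 15 higher genes were above every other. Over all 3788 genes tested, 54 (1.43%) were below and 28 (0.739%) above every other array. The called genes were chosen by the same values, so a larger share among them was to be awaited. Mtmr9 differed by -1.34 ± 0.17 (standard error; adjusted p 4.4e-08 with limma) and Map2k6 by -1.23 ± 0.17. Of 910 genes called in the mean and tested here, 49 were also called in this comparison. With the spread from all 20 arrays, Mtmr9 and Map2k6 were not called (adjusted p 0.90 for both with limma).

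Terf1, which binds telomere repeats, was below 0 at time point 4, while its mean at the other time points was 0.14. Its values of -0.58 and -0.90 lay below all 12 other arrays (-0.17 to 0.90, median 0.07). The difference was -0.88 ± 0.15 (standard error; adjusted p 0.00011 with limma). Csnk1g2, a casein kinase, measured -1.70 and -0.86, a difference of -0.997, and was no longer called without the first array. Ube2d1 differed by -0.92 and was not called without the second array, nor was Terf1 (adjusted p 0.062 with limma). Pira1, an immunoglobulin-like receptor, was at -0.96 and -1.20, below all 8 other values. Mtmr9 and Map2k6 kept their call whichever array was left out, in 13 and 14 fits.

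Several genes named under the lists also belong here. The proteasome gene Psma7 was at or above -0.39 on the other arrays, and its difference was -0.71 (adjusted p 0.0020 with limma). Psmd11 differed by -0.69, and 2 other arrays, at -0.98 and -1, reached its range. The mitochondrial ribosomal gene Mrps12 differed by -0.69, Slc6a9 by -0.65 and Fmo5 by -0.64, and the values of all 3 at time point 4 were below every other array of the fit. No glycolytic gene was called in this comparison. Tpi1 came closest among the 4 lowest of the list, with a difference of -0.46 and an adjusted p of 0.11 with limma.

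**Figure D5:**
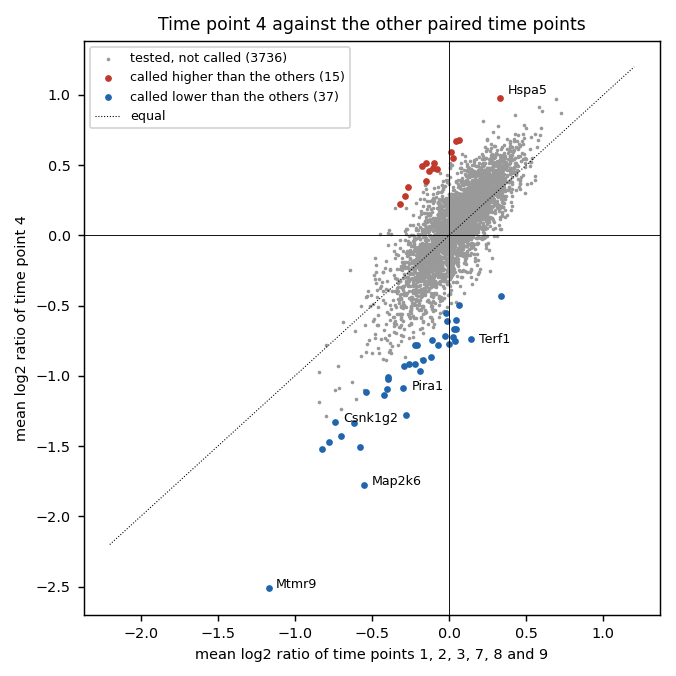
Mean log2 ratio at time point 4 against the mean of time points 1, 2, 3, 7, 8 and 9 for 3788 genes, with the 15 genes called higher in red, the 37 called lower in blue and equality as a dotted line. Mtmr9 and Map2k6 are far below the line, and Terf1 lies low from a mean above 0 at the other time points (0.14).

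Most calls of genes higher than at the other time points rested on time point 7. Mrpl24, a mitochondrial ribosomal protein, differed by 0.67 with values of 0.33 and 0.67 at time point 4, but its one array of time point 7 stood at -2.24. Prg2, the eosinophil major basic protein, was at 0.23 and 0.46 and at -2.80 on that array. Ccdc83 was at 0.62 and 0.72 and at -1.09 and -1.20 at time point 7, and Hspa5 was at -0.66 and -0.97 there. With time point 7 taken out of the mean that is subtracted, a setting chosen after seeing the data, 2 of the 15 higher genes were still called, and 31 of the 37 lower ones were. Chrd, chordin, a BMP antagonist, was one of the 2. It measured 0.47 and 0.89 at time point 4, above all 12 other arrays (highest 0.36), and its difference was 0.61 (adjusted p 0.017 with limma), or 0.63 without time point 7. Aanat, an enzyme of melatonin synthesis, was above all 10 other arrays of the fit as well (0.56 and 0.47, highest other 0.46), and lost its call without time point 7 (adjusted p 0.26 with limma). When the arrays were scaled to equal spread, 0 higher and 14 lower genes were called.

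Against time point 3, the neighbour with 2 arrays, 10 of 4276 genes were lower (0.234%) and 0 were higher, with limma and Benjamini-Hochberg adjustment. At an unadjusted p under 0.05 the counts were 184 lower and 116 higher. Terf1 led with a difference of -1.25 (adjusted p 0.00013 with limma), from 0.90 and 0.13 at time point 3, and without the first array of time point 3 it was not called (adjusted p 0.14 with limma). Arrdc5, an arrestin-domain protein, differed by -1.10 and Cbr2, a carbonyl reductase, by -1.13. Time point 3 had a single value for each of them (0.49 and 0.79), and Cbr2 was at 0.025 on the first array of time point 4. Without the second array neither was called (adjusted p 0.135 for Arrdc5 and 0.754 for Cbr2, with limma). Psma7 (-0.88) and Ube2d1 (-0.90) were lower here too. Hspa5 measured 0.96 and 0.48 at time point 3, and Mtmr9 -2.29 and -0.97, and neither differed from time point 4 beyond the threshold.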

How the data were processed

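The deposited log2 ratios of 2-colour spotted arrays were used, 1 column per array. Base 2 and the direction (Cy5 of varied over Cy3 of constant flasks, per the labels) are assumptions. The authors' background correction, spot filter and normalization are not given in the sources used here. Deposited medians of the 2 arrays were 0.435 and 0.40, so each array was centred on its median. Probes of 1 symbol were averaged. The platform annotation lists 14719 probes, of which 14445 matched a reference gene table, and 2562 probes had no usable symbol and kept their number.

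In R 4.3.3, limma 3.58.1 was fitted with a mean per time point to the 14 arrays of time points 1, 2, 3, 4, 7, 8 and 9. Time points 5 and 11 have 1 array, and the second arrays of time points 6 and 10 had r = 0.047 and 0.010 with the first of time point 4. Genes needed a value on both arrays of time point 4 and on 10 of the 14, which left 428 valued genes untested. Adjusted p (Benjamini-Hochberg over all genes tested) under 0.05 counted as called. The fit was tested on simulated data. The number of arrays limits the precision.

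The members, the 45 gene lists and the comparisons were chosen with earlier results of these data known. Genes were named by rule: the 12 highest and 12 lowest called genes of the mean, the 6 at each end against the other time points, up to 3 at each end against time point 3, up to 4 called members per list (otherwise the 2 with the largest mean), the 4 whose arrays differ most, and Asns, Glul, Ddit3, Slc38a2, Slc1a5, Trib3, Sesn2 and Hspa5. Other list members were named after their values were seen. Deviations of same-numbered arrays had no common direction across time points (correlations from -0.44 to 0.34, median -0.05), so the main fit has no replicate block. The fit treats the arrays as independent, although some of these correlations are far from 0.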

Additional observations from a re-analysis of the deposited data

Results flagged for a closer look

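The genes below were singled out because their ratio at time point 4 differed from that at other time points by a limma contrast between time points, with Benjamini-Hochberg adjustment. Against the mean of time points 1, 2, 3, 7, 8 and 9, 6 named genes were lower. The differences were -1.34 for Mtmr9, -1.23 for Map2k6, -0.997 for Csnk1g2, -0.924 for Ube2d1, -0.878 for Terf1 and -0.782 for Pira1. These 6 kept their call when arrays were scaled to equal spread and when time point 7 was taken out of the mean subtracted, and all 6 lost it with the spread from all 20 arrays. Csnk1g2 lost it without the first array of time point 4, and Ube2d1 and Terf1 without the second. Pira1 could be tested in 4 of the 14 fits that leave out an array.

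Another 6 were higher, by 0.672 for Mrpl24, 0.645 for Hspa5, 0.63 for Ccdc83, 0.617 for Prg2, 0.615 for Chrd and 0.611 for Aanat. All 6 lost their call under scaling to equal spread and with all 20 arrays. Without time point 7 in the mean subtracted, Chrd kept its call and the other 5 did not. Hspa5 also lost its call without any one of 6 single arrays, Aanat without any of 4 and Chrd without any of 3.

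Against time point 3, Terf1 differed by -1.25, Cbr2 by -1.13 and Arrdc5 by -1.1. Of these, Cbr2 had an adjusted p of 0.0511 with limma when the replicate number was a block. Time point 3 gave a single value for Cbr2 and for Arrdc5.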

How the results depend on the processing

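All 52 named results that were recomputed kept their direction under the alternatives tried for each (spread, centring, scaling, block and either array of time point 4 left out), and 15 also kept their side of the threshold. The kept direction says little. Most of these genes were named only if both arrays of time point 4 lay on the same side, and changing the spread leaves a mean as it is. With the spread from all 20 arrays, the counts fell from 599 higher and 437 lower to 60 and 72, from 15 and 37 to 0 and 0 against the other time points, and from 10 to 0 lower against time point 3. With a value required on all 14 arrays they were 125 lower in the mean, 7 higher and 14 lower against the others, and 6 lower against time point 3. Without centring they were 3053 higher and 79 lower, 4 lower against the others and 1 lower against time point 3. With centring within stretches of probes, 9 were higher against the others and 4 lower against time point 3. With equal spread, they were 305 higher and 274 lower, 0 and 14 against the others, and 4 lower against time point 3. With the sign of the first array turned, 0 were called either way. At least 1 on both arrays, with no test, gave 0 higher and 25 lower. Taking time point 7 out of the mean subtracted, a setting chosen after seeing the data, gave 2 higher. The cause of these shifts was not tested. The 7 lower glycolytic genes became 1 with all 20 arrays, 4 with values on all 14, 1 without centring and 0 with the first array turned.

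Leaving out single arrays, the counts ranged from 43 to 668 higher and 141 to 437 lower in the mean, from 0 to 25 and 19 to 50 against the others, from 0 to 3 higher and 6 to 22 lower against time point 3, and from 3 to 7 for glycolysis. The lowest counts of the mean came without the second array of time point 4, the highest higher count without the first array of time point 7. The replicate number as a replicate block gave 574 higher and 426 lower, 17 and 42 against the others and 8 lower against time point 3, and ended the call of Cbr2. Same-numbered deviations correlated between -0.44 and 0.34, above 0.1 in 6 of 21 pairs of time points. The numbers are thus not a consistent pairing, but some time points share deviations, which the fit does not model. The share of lower genes among those called was 42.2%, and 54.5% with all 20 arrays, 17.7% with values on all 14 and 2.52% without centring. Missing values limit the rest: 10926 of 17280 probes had no value on either array, for a reason that the sources used here do not give.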

Other observations

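Among genes measured on fewer than 10 of the 14 arrays, and so not tested, several had large values on both arrays of time point 4. The lowest were Olig1, a transcription factor of oligodendrocytes, at -1.85 and -2.06, and the glutamate receptor subunit Gria3 at -1.19 and -2. Wipi2, a factor of autophagosome formation, was at -1.42 and -1.32. Me1, the cytosolic malic enzyme that makes NADPH, was at -1.53 and -0.87. Castor2, of the family that senses arginine for mTOR complex 1, was at -1.25 and -1.08. The highest was Anxa6, a membrane-binding annexin, at 0.90 and 0.86. Atf5, a transcription factor of the ATF4 programme, was at 1.06 on the first array and 0.13 on the second. These genes were chosen after their values were seen.

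The arrays disagreed most on Snrnp25, a minor spliceosome protein (-1.43 and 0.23, not tested). They also differed on C1galt1, a glycosyltransferase (-0.56 and -1.78, called lower), Lnx2, a ubiquitin ligase (-1.32 and -0.12, called lower), and Myo1e, an unconventional myosin (0.26 and -0.94, not called).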
